A study of Mus musculus with 7 samples.

Results

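A set of 9 astrocyte genes was read out of bulk RNA-seq of the mouse cerebral cortex, chosen by gene symbol as astrocyte markers, glutamate transporters and the enzyme glutamine synthetase. The set held Sox9, Aldh1l1, S100b, Gfap, Slc1a2, Slc1a3, Glul, Aqp4 and Gja1, and all 9 were present among the 24346 genes of the table. The samples were cortices of 4 CrT-/y males (labelled Slc6a8 KO) and 3 CrT+/y littermate males (labelled Slc6a8 WT), all at postnatal day 100 on a C57BL/6J background, with no treatment and 1 library per animal. In CrT-/y males exons 5 to 7 are missing from Slc6a8, the X-linked gene for the creatine (Cr) transporter, in every cell of the body, so that astrocytes were not targeted in particular. The question was how Cr deficiency alters gene expression, and values were given in FPKM, a fragment count scaled to the length of the gene and the depth of the library. Mean Slc6a8 was 14.4 ± 1.41 FPKM (SD, n = 4) after deletion against 30.0 ± 2.15 FPKM (SD, n = 3) in littermates, and no CrT-/y animal overlapped with a CrT+/y animal. The values are per gene, and the deleted exons were not measured separately.

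Astrocytes are the glial cells that clear glutamate from the synaptic cleft. They take it up through the transporters GLT-1 and GLAST, turn it into glutamine with glutamine synthetase, and return the glutamine to neurons, which make new transmitter from it. They also buffer potassium and water at endfeet on blood vessels, and they are joined into networks by gap junctions. The uptake of glutamate is driven by the sodium gradient and therefore uses energy. When astrocytes become reactive, as after injury, they typically raise the filament protein GFAP.

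The 9 genes were well covered. The smallest values of weakly expressed genes put 1 fragment at 0.032 to 0.0455 FPKM times kb, which gave an estimated depth of 22.0 to 31.2 M fragments in CrT-/y and 23.5 to 27.4 M fragments in CrT+/y libraries. On this estimate Sox9, the weakest of the 9, rested on at least 1013 fragments per animal, where counting error alone is 3.14% at most. The spread between animals was larger for most genes, with a coefficient of variation of 2.14% to 22.5% in CrT-/y and 4.11% to 21.3% in CrT+/y animals. No batch was given for the libraries. Bulk values cannot tell fewer astrocytes from less RNA per astrocyte.

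Of the 9 genes, 8 had a lower mean in CrT-/y cortices, as did 58.2% of all tested genes, and Gfap had a higher one. Only Sox9 passed the test. A gene was called at an adjusted p-value under 0.1 with limma on log2(FPKM + 0.1), fitted over the 12988 genes whose mean reached 1 FPKM, all 9 members among them. Of the 9, 1 was called lower and 0 were called higher, and 2 had an unadjusted p-value under 0.05. Over all tested genes, 10.1% were called (7.25% lower and 2.90% higher) and 25.0% had an unadjusted p-value under 0.05, so that the share among the 9 was near the background. The median log2 fold change was -0.14 over the 9 genes and -0.03 over all tested genes. In 2 genes, Sox9 and Glul, the highest CrT-/y value lay under the lowest CrT+/y value, a separation that 21.6% of all tested genes showed in either direction (15.0% lower and 6.57% higher). The groups overlapped in the other 7.

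**Figure D1:**
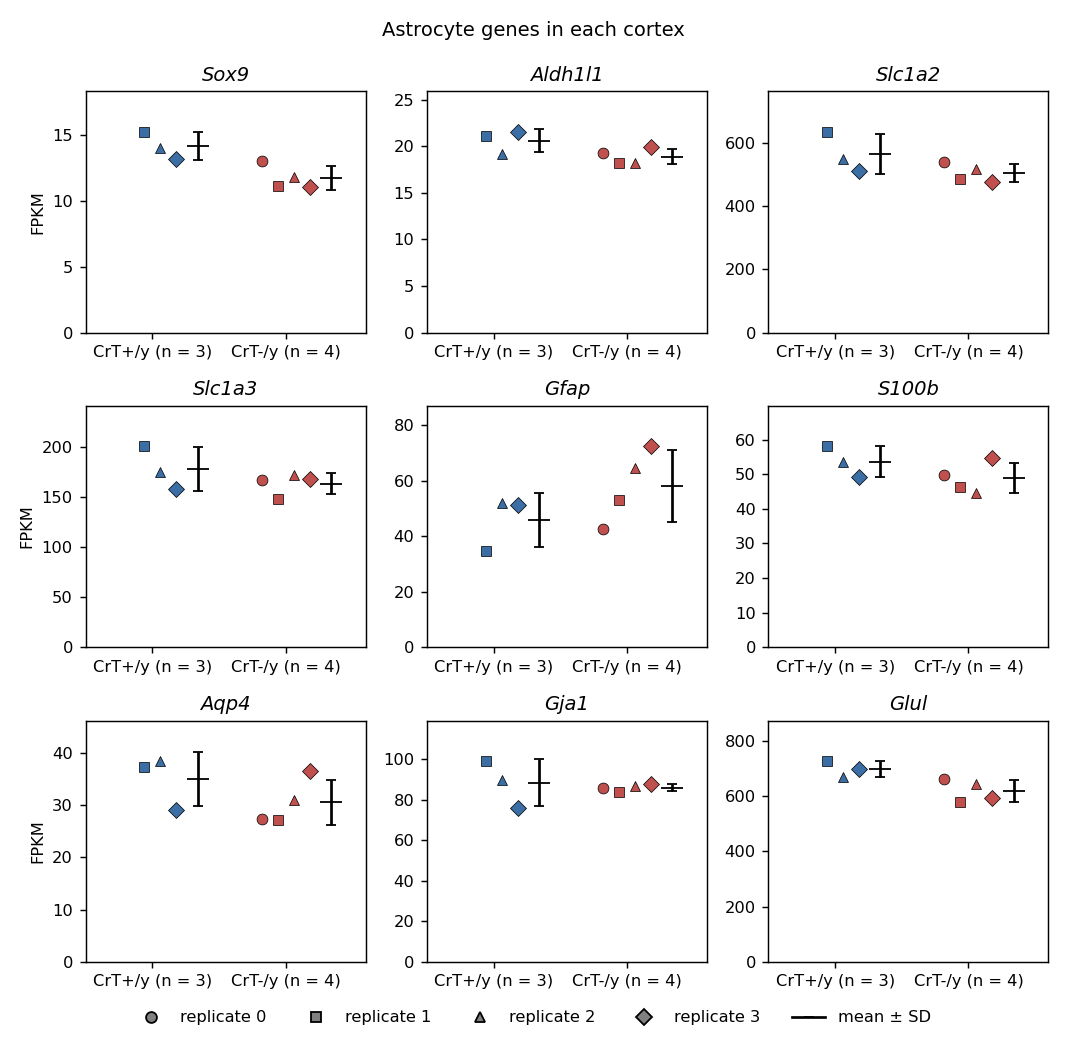
FPKM of each of the 9 astrocyte genes (y axes, each from 0) in the 3 CrT+/y (blue) and 4 CrT-/y (red) cortices, with marker shape for the replicate number and mean ± SD beside the points. Sox9 and Glul have no overlap between genotypes, while Gfap is the single gene with a higher mean in CrT-/y animals.

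The first group was the identity genes. Sox9, the transcription factor that marks astrocyte nuclei in the adult cortex, lies on chromosome 11 of GRCm38 (mm10) from 112782224 to 112787760, on the plus strand. It was at 13.0, 11.1, 11.8 and 11.1 FPKM in CrT-/y replicates 0 to 3 and at 15.3, 14.0 and 13.2 FPKM in CrT+/y replicates 1 to 3. The highest CrT-/y animal lay 0.151 FPKM below the lowest CrT+/y animal, so that the genotypes were separate but adjacent. Sox9 fell by 0.27 on the log2 scale (standard error 0.079, 95% confidence interval -0.44 to -0.09, adjusted p = 0.090 with limma), to 83.1% of the CrT+/y mean. The call was close to the threshold. It was lost when CrT-/y replicate 1, 2 or 3 was left out (adjusted p = 0.22, 0.19 and 0.19 with limma), or CrT+/y replicate 1 or 2 (0.24 and 0.15), and under every other scaling of the animals (0.12 to 0.14), while the log2 fold change stayed between -0.32 and -0.20.

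Aldh1l1 encodes the folate enzyme 10-formyltetrahydrofolate dehydrogenase and is used as a marker of astrocytes in general (chromosome 6, 90486427 to 90600203, plus strand). It was at 19.3, 18.2, 18.3 and 19.9 FPKM in CrT-/y and at 21.1, 19.2 and 21.6 FPKM in CrT+/y animals. CrT+/y replicate 2 lay inside the CrT-/y range. The log2 fold change was -0.12 (95% confidence interval -0.27 to 0.02, adjusted p = 0.25 with limma). S100b, a calcium-binding protein of astrocytes that part of the oligodendrocytes also express, lies on chromosome 10 from 76253853 to 76261159, on the plus strand. It was at 49.8, 46.4, 44.5 and 54.5 FPKM in CrT-/y and at 58.1, 53.6 and 49.1 FPKM in CrT+/y animals. CrT-/y replicates 0 and 3 lay above CrT+/y replicate 3, and the log2 fold change was -0.14 (95% confidence interval -0.32 to 0.05, adjusted p = 0.33 with limma). For S100b it was -0.08 when CrT+/y replicate 1 was left out (adjusted p = 0.68 with limma).

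Gfap, the intermediate filament of astrocytes, differed from the rest in direction and in spread (chromosome 11, 102887336 to 102900912, minus strand). It was at 42.7, 52.9, 64.5 and 72.5 FPKM in CrT-/y and at 34.6, 51.9 and 51.2 FPKM in CrT+/y animals. Of the 4 CrT-/y animals, 3 lay above every CrT+/y animal, and replicate 0 lay within the CrT+/y range. Mean Gfap was thus 58.1 ± 13.1 FPKM (SD) over the 4 and 45.9 ± 9.77 FPKM (SD) over the 3 animals. The log2 fold change of 0.34 had a confidence interval from -0.10 to 0.77 (95%, adjusted p = 0.31 with limma). CrT+/y replicate 1 had the lowest Gfap of the 7 animals, and without it the log2 fold change was 0.14 (adjusted p = 0.71 with limma). Without CrT-/y replicate 3, the highest, it was 0.22 (adjusted p = 0.54 with limma). Leaving out CrT-/y replicate 0 gave 0.47 (adjusted p = 0.17 with limma), and leaving out CrT+/y replicate 2 or 3 gave 0.44 and 0.43 (0.29 and 0.21).

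The second group was the transporters. Slc1a2 encodes GLT-1, the main glutamate transporter of the forebrain (chromosome 2, 102658659 to 102790784, plus strand). It was at 538, 486, 518 and 476 FPKM in CrT-/y and at 634, 547 and 511 FPKM in CrT+/y animals. The groups overlapped through CrT+/y replicate 3, while CrT+/y replicate 1 stood above the other 6 animals. The log2 fold change was -0.16 (95% confidence interval -0.35 to 0.03, adjusted p = 0.28 with limma). Slc1a3 encodes GLAST, the second astrocyte transporter (chromosome 15, 8634124 to 8710764, minus strand). It was at 166, 148, 171 and 167 FPKM in CrT-/y and at 201, 175 and 158 FPKM in CrT+/y animals. CrT+/y replicate 3 was lower than 3 of the CrT-/y animals, and the log2 fold change was -0.12 (95% confidence interval -0.32 to 0.08, adjusted p = 0.43 with limma). Both transporters were again highest in CrT+/y replicate 1, and without this animal the log2 fold changes were -0.07 and -0.03. Without CrT+/y replicate 3, the lowest CrT+/y animal, Slc1a2 was called lower (log2 fold change -0.22, adjusted p = 0.081 with limma) and Slc1a3 was not (-0.20, adjusted p = 0.11 with limma).

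Glul encodes glutamine synthetase, which joins the glutamate taken up with ammonia (chromosome 1, 153899944 to 153909723, plus strand). It was at 662, 580.0, 643 and 593 FPKM in CrT-/y and at 728, 670.4 and 697 FPKM in CrT+/y animals. As for Sox9, the genotypes were separate but adjacent, with a gap of 8.59 FPKM, which was 1.28% of the lowest CrT+/y value. Mean Glul was 619 ± 39.3 FPKM (SD) over the 4 CrT-/y and 698 ± 28.7 FPKM (SD) over the 3 CrT+/y animals. The log2 fold change was -0.17 (standard error 0.070, 95% confidence interval -0.33 to -0.02), with an unadjusted p-value of 0.033 and an adjusted p-value of 0.17 with limma, and it was not called in any of the 19 alternative fits (adjusted p = 0.12 to 0.35 with limma). Oligodendrocytes also express Glul.

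The promoters of Glul and Gfap are shown because the former gene had separate genotypes and the latter the opposite direction. No promoter window was available for Sox9, which also had separate genotypes, or for Aqp4. The RefSeq windows of GRCm38.p6 hold 250 bases before and 50 bases after the start of the transcript. The Glul window is chr1:153899679-153899978 on the plus strand and the Gfap window is chr11:102897151-102897450 on the minus strand. The Gfap window lies inside the annotated span of the gene, which starts further upstream. Both are written 5′ to 3′ on the strand of the gene, with matches in capitals.
Glul: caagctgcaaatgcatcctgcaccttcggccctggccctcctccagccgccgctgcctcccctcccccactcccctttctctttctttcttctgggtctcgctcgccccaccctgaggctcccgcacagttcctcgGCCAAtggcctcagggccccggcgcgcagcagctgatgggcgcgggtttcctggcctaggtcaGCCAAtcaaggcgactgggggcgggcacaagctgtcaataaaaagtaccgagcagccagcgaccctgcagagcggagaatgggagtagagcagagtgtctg
Gfap: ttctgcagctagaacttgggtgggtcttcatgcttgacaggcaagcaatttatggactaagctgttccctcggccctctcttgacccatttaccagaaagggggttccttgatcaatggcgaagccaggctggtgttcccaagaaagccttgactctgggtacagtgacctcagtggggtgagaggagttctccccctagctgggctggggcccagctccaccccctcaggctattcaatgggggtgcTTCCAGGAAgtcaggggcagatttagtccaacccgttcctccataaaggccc
Motifs of factors known in astrocytes were searched on both strands, the SOX core ACAAT, the NFI half-site TTGGC and the STAT site TTCNNNGAA. The capitals in Glul mark 2 matches of TTGGC on the opposite strand, both of which overlap the letters CCAAT, another promoter motif. The capitals in Gfap mark 1 match of TTCNNNGAA. TTGGC was found in 46.7%, ACAAT in 31.0% and TTCNNNGAA in 8.30% of 32851 windows of the same length. Of the 7 members with a window, 3 held TTGGC (Glul, Slc1a2 and S100b), 1 held ACAAT (Slc1a3) and 2 held TTCNNNGAA (Gfap and Slc1a3). A match is a description of the letters only.

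The third group was the membrane channels. Aqp4, the water channel of astrocyte endfeet, lies on chromosome 18 from 15389496 to 15410982, on the minus strand. It was at 27.3, 27.2, 31.1 and 36.5 FPKM in CrT-/y and at 37.3, 38.5 and 29.0 FPKM in CrT+/y animals. The CrT+/y group was split, with replicate 3 among the low CrT-/y animals, and the log2 fold change was -0.19 (95% confidence interval -0.48 to 0.09, adjusted p = 0.37 with limma). Without CrT+/y replicate 3 it was -0.32 and called (adjusted p = 0.090 with limma), while leaving out CrT+/y replicate 1 or 2 gave -0.14 and -0.12 (0.64 and 0.66). Gja1 encodes connexin 43, the main gap junction protein of astrocytes (chromosome 10, 56377330 to 56402513, plus strand). It was at 85.8, 83.7, 86.7 and 88.1 FPKM in CrT-/y and at 99.3, 90.0 and 76.1 FPKM in CrT+/y animals. All 4 CrT-/y animals lay inside the CrT+/y range, and Gja1 had both the smallest coefficient of variation in CrT-/y animals and the smallest difference of the 9 genes (log2 fold change -0.03, 95% confidence interval -0.22 to 0.16, adjusted p = 0.84 with limma). The sign of this difference turned with every other scaling of the animals.

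**Figure D2:**
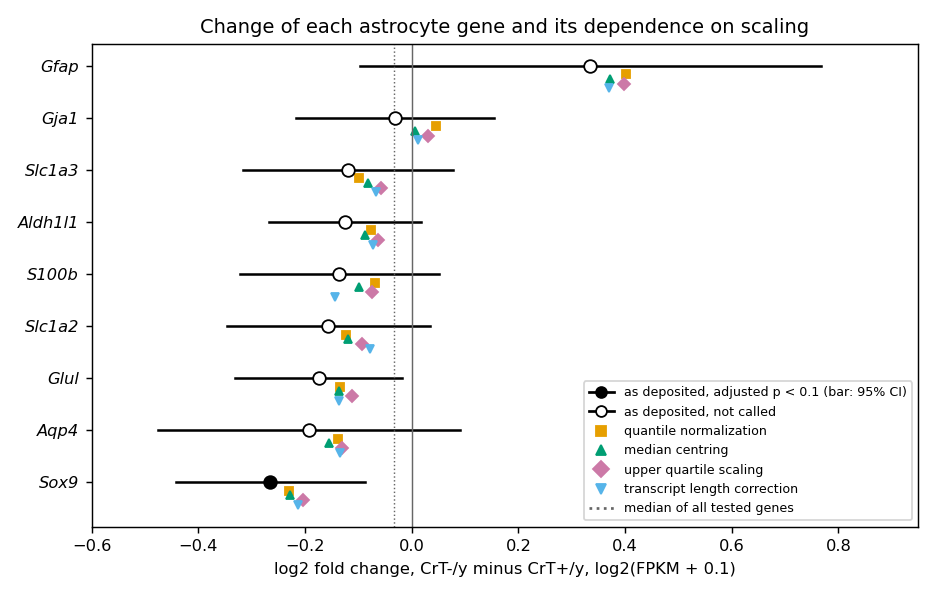
Log2 fold change (x axis, CrT-/y minus CrT+/y on log2(FPKM + 0.1)) of each gene (y axis) with its 95% confidence interval from limma, and the fold change under 4 other scalings as coloured symbols. Only the filled point, Sox9, passes the threshold, and Gja1 is the gene whose sign differs between the scalings.

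The direction of the other 8 genes did not depend on the scaling. After quantile normalization, median centring, upper quartile scaling and the correction for transcript length, 7 of them kept a lower and Gfap a higher mean in CrT-/y animals, although the median of all tested genes moved from -0.03 to as much as 0.03 on the log2 scale. The sizes did depend on it. Under these scalings the log2 fold change was 0.37 to 0.40 for Gfap, -0.23 to -0.20 for Sox9 and -0.14 to -0.11 for Glul. It came as close to 0 as -0.08 for Slc1a2 (length correction), -0.06 for Slc1a3 and Aldh1l1 (upper quartile), -0.07 for S100b (quantile) and -0.13 for Aqp4 (upper quartile).

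By level, Glul was the most abundant of the 9 genes, followed by Slc1a2, Slc1a3, Gja1, S100b, Gfap, Aqp4, Aldh1l1 and Sox9 in CrT+/y animals (mean FPKM, a measure per length). Glul and Slc1a2 together gave 73.3% to 75.2% of the summed FPKM of the 9 genes in CrT+/y and 70.4% to 74.8% in CrT-/y animals. Slc1a2 was 3.17 times as abundant as Slc1a3 in CrT+/y and 3.09 times in CrT-/y animals. The order was the same in every animal for 6 of the 8 neighbouring pairs. The ranges of S100b and Gfap overlapped in both genotypes, and Gfap was above S100b in 3 of the 4 CrT-/y animals and 1 of the 3 CrT+/y animals. Gfap and Aqp4 overlapped in CrT+/y animals only through replicate 1. The 9 genes summed to 1604.5, 1453, 1589 and 1519 FPKM in CrT-/y and to 1828, 1659.8 and 1605.3 FPKM in CrT+/y animals. The genotypes were separate but adjacent in these sums, with the highest CrT-/y sum just under the lowest CrT+/y sum. As shares of the FPKM of all genes the groups overlapped (0.379% to 0.415% in CrT-/y and 0.3998% to 0.453% in CrT+/y animals). Without Glul and Slc1a2 the sums also overlapped (387.2 to 449.996 FPKM in CrT-/y and 397.8 to 466.3 FPKM in CrT+/y animals).

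The animals were not alike within a genotype. CrT+/y replicate 1 had the highest value of the 7 animals in 6 of the 9 genes and the lowest in Gfap. CrT-/y replicate 1 had the lowest value in 4 genes. The median log2 deviation of the 9 genes from their means was 0.20, 0.05 and -0.04 in CrT+/y replicates 1, 2 and 3 and -0.02, -0.13, -0.03 and 0.02 in CrT-/y replicates 0 to 3, and the ranges of the genotypes overlapped. CrT-/y replicate 3 was high in Gfap (0.49), Aqp4 (0.19) and S100b (0.11) and low in Sox9 (-0.20), Slc1a2 (-0.15) and Glul (-0.14).

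**Figure D3:**
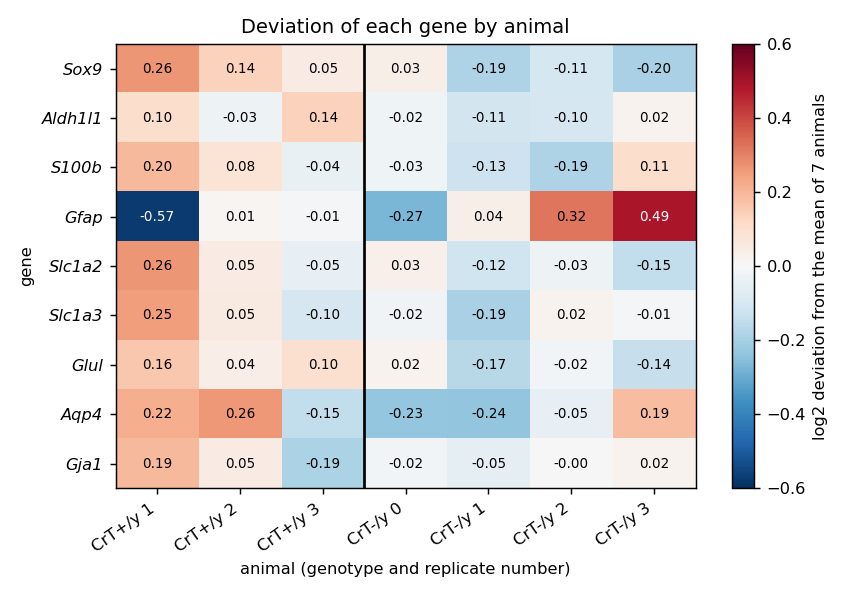
Log2 deviation of each gene (rows) in each animal (columns, genotype and replicate number) from its mean over the 7 animals, with the value printed and the colour scale at the right. CrT+/y replicate 1 is above the mean in all genes but Gfap, which is at -0.57 there and at 0.49 in CrT-/y replicate 3.

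Ratios between members of the same library do not depend on a scaling factor of the library. A correction that differs with transcript length can still move them, and the ratios were not run with it. The 5 ratios were compared with exact permutation tests (two-sided, with the smaller tail doubled, 35 splits). With so few splits no ratio could reach a p-value under 0.05, whatever its values. Slc1a2/Slc1a3, the ratio of the transporters, was 3.23, 3.29, 3.02 and 2.84 in CrT-/y and 3.16, 3.12 and 3.24 in CrT+/y animals, and did not differ beyond the spread (exact permutation p = 0.63, 0.79 after adjustment over the 5 ratios). Glul/Slc1a2, synthesis against uptake, was 1.19 to 1.24 in CrT-/y and 1.15 to 1.37 in CrT+/y animals (exact permutation p = 0.80). Gfap/Aldh1l1 was 2.21, 2.90, 3.52 and 3.64 in CrT-/y and 1.64, 2.70 and 2.37 in CrT+/y animals, with a mean difference of 0.46 on the log2 scale and overlapping groups (exact permutation p = 0.17, 0.48 after adjustment). Aqp4/Gja1 and S100b/Sox9 differed by -0.16 and 0.13 on the log2 scale (exact permutation p = 0.23 and 0.29, both 0.48 after adjustment). Single animals moved these differences, which were not tested again without them. Gfap/Aldh1l1 differed by 0.25 without CrT+/y replicate 1, S100b/Sox9 by 0.05 without CrT-/y replicate 3 and Aqp4/Gja1 by -0.10 without CrT+/y replicate 2. The sign turned for Slc1a2/Slc1a3 without CrT-/y replicate 3 (-0.04 to 0.0033) and for Glul/Slc1a2 without CrT+/y replicate 3 (-0.02 to 0.05).

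The likeness of 2 genes was measured as the mean absolute difference of their log2 deviations over the 7 animals. Within the 9 genes, Slc1a2 and Glul were the closest pair (0.048), followed by Slc1a3 and Gja1 (0.050) and by Slc1a2 and Slc1a3 (0.054). Gfap was the farthest from all others (0.30 to 0.38). The measure grows with the spread of a gene, and Gfap deviated most from its own mean (0.25 on average, 0.075 to 0.19 in the others). Outside the 9 genes, Zmynd11 was closer to Slc1a2 (0.012) and Tspyl1 to Glul (0.015) than the closest pair within them. Among the 12979 other tested genes, the nearest to Gfap were Comtd1 (0.10) and Vim (0.11), and Vim encodes vimentin, another filament protein of reactive astrocytes. The nearest to Sox9 were Api5 and Uqcrb, to Aldh1l1 Nceh1, to Slc1a2 Zmynd11 and Mmgt2, to Slc1a3 Hapln1 and Cd200, to S100b Diras1 and Cntnap5a, to Aqp4 Fam114a1 and Cdh5, to Gja1 Sfswap and Mfap3l, and to Glul Tspyl1 and Rnf10, at 0.012 to 0.059.

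Another 30 genes enriched in astrocytes were read from the same fit. Of the 30, 5 were called lower and 0 higher, where 7.25% and 2.90% of all tested genes were. A lower mean was found in 20 of the 30, against 58.2% of all tested genes. The median log2 fold change of the list was -0.05. The called genes included Kcnj10, the potassium channel Kir4.1 that buffers potassium, at 42.8, 37.0, 37.6 and 43.9 FPKM in CrT-/y and 57.3, 51.5 and 49.5 FPKM in CrT+/y animals. It fell by 0.39 on the log2 scale (standard error 0.080, adjusted p = 0.042 with limma), with no overlap, and the call was lost without CrT-/y replicate 1 or 2 or CrT+/y replicate 1 (0.13, 0.12 and 0.12). Clu, the secreted chaperone clusterin, was at 428 ± 14.3 (SD, n = 4) against 502 ± 6.33 FPKM (SD, n = 3) and fell by 0.23 (adjusted p = 0.058 with limma). Cldn10, a claudin, and Htra1, a secreted protease, fell by 0.34 and 0.38 (adjusted p = 0.051 and 0.056 with limma). Atp1b2, the sodium pump subunit AMOG, was named after its value was seen and fell by 0.34 with overlapping groups (adjusted p = 0.090 with limma). The count moved with single animals. It was 0 without CrT-/y replicate 1 or CrT+/y replicate 1, 1 without CrT-/y replicate 2 or 3, 3 without CrT-/y replicate 0 or CrT+/y replicate 2, and 9 once CrT+/y replicate 3 was left out.

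Of 13 genes for the endfoot scaffold and gap junctions that work with Aqp4 and Gja1, 12 were tested. Among them 2 were called lower, Kcnj10 and Dtna, and 0 were called higher, where 7.25% and 2.90% of all tested genes were. This list shares genes with the astrocyte-enriched list above, and the Kcnj10 call is the same one counted there. Dtna, which encodes the scaffold protein dystrobrevin alpha, was at 32.2, 28.0, 29.8 and 31.7 FPKM in CrT-/y and 36.8, 37.9 and 35.1 FPKM in CrT+/y animals, and fell by 0.27 on the log2 scale without overlap (adjusted p = 0.057 with limma). The list had a median log2 fold change of -0.18. The count was 0 without CrT-/y replicate 1 or 2 or CrT+/y replicate 1, 1 without CrT-/y replicate 3 or CrT+/y replicate 2, and 4 once CrT+/y replicate 3 was left out, when the genes called lower among all tested also increased from 941 to 2393.

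The remaining steps of the glutamate and glutamine cycle showed no called gene. Of 17 listed genes for other glutamate and glutamine transporters, glutaminases and glutamate-converting enzymes, 16 were tested. Among the 16, 7 had a higher and 9 a lower mean. With limma 0 were called in either direction, and 2 had an unadjusted p-value under 0.05. Over all tested genes these shares were 10.1% and 25.0%, so that 0 called of 16 says little about the list in particular. Of the 16, 1 was called higher and 1 lower without CrT+/y replicate 3, and 1 lower without CrT+/y replicate 2. Their median log2 fold change was -0.01, and their summed level was 795 to 824 FPKM in CrT-/y and 788 to 851 FPKM in CrT+/y animals.

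Reactive astrocyte genes were uneven. Of 22 listed genes 13 were tested, and the other 9 had a mean under 1 FPKM. Of the 13, 1 was called higher and 0 were called lower (2.90% and 7.25% of all tested genes), and the median log2 fold change was -0.04, against -0.03 over all tested genes. The called gene was C4b, complement component 4, at 5.98, 7.13, 9.05 and 9.90 FPKM in CrT-/y and 2.38, 4.36 and 4.32 FPKM in CrT+/y animals. It rose by 1.12 on the log2 scale (standard error 0.23, adjusted p = 0.042 with limma), without overlap. The call was lost without CrT-/y replicate 1, 2 or 3 (adjusted p = 0.12, 0.11 and 0.10 with limma). C4b has a near-identical copy in the mouse, and only uniquely aligned reads were kept, so that its level is uncertain. Microglia and other cells also express it. Without CrT+/y replicate 2, 2 genes of the list were called higher, and without CrT+/y replicate 1 or 3, 1 was called lower. Serpina3n, a protease inhibitor named after its value was seen, was at 5.60, 24.2, 26.6 and 6.92 FPKM in CrT-/y and 5.05, 5.58 and 6.42 FPKM in CrT+/y animals, so that replicates 1 and 2 stood above the other 5 animals (log2 difference 1.14, adjusted p = 0.21 with limma). For Vim the log2 difference was 0.41 (adjusted p = 0.18 with limma).

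**Figure D4:**
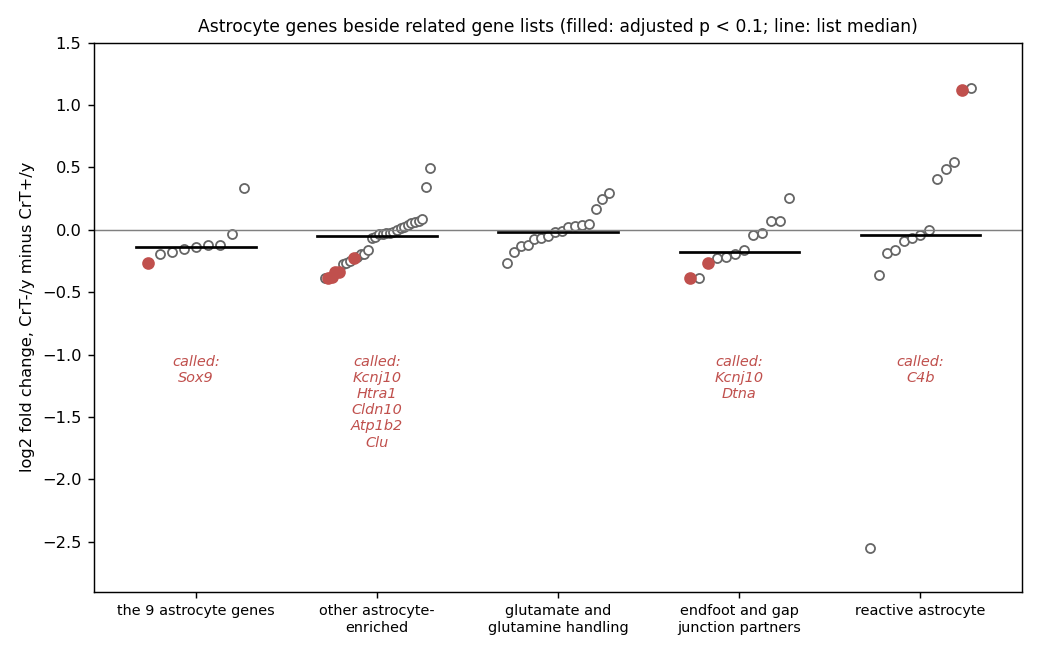
Log2 fold change (y axis, CrT-/y minus CrT+/y) of each tested gene in the 9 astrocyte genes and 4 related lists (x axis), with called genes filled and named and list medians as lines. The lowest open point is Lcn2, which was at 10.2 FPKM in CrT+/y replicate 3 and at 0.661 FPKM or less in the other 6 animals.

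Markers of some other cells and regions differed with genotype or in single animals, while the sums of neuron and microglia markers overlapped between genotypes. The counts of called markers stand against 7.25% called lower and 2.90% called higher over all tested genes. A lower mean in CrT-/y animals was found in 58.2% of all tested genes. The 10 oligodendrocyte markers summed to 1466, 1451, 1357 and 939 FPKM in CrT-/y replicates 0 to 3 and to 1332, 1753 and 1517 FPKM in CrT+/y animals, and all 10 had a lower mean in CrT-/y animals (1 called). CrT-/y replicate 3, with the lowest sum, had the highest S100b of its genotype. The 6 markers of oligodendrocyte precursors summed to 82.8 to 102.0 FPKM in CrT-/y and 103.3 to 111.5 FPKM in CrT+/y animals, and 1 was called lower. The 10 vascular markers, from cells that endfeet contact, summed to 185 to 210.1 FPKM in CrT-/y and 216 to 236 FPKM in CrT+/y animals without overlap, and 4 were called lower. For 10 neuron markers the sums were 4039 to 4435 and 4052 to 4621 FPKM, and for 10 microglia markers 247 to 263 and 240.0 to 265 FPKM, with 1 of 10 called higher in each list. Ependymal and choroid plexus markers, cells that also express Aqp4 or Sox9, summed to 17.0 to 62.5 FPKM in CrT-/y and to 13.9, 406 and 28.7 FPKM in CrT+/y replicates 1, 2 and 3 (1 of 9 tested called higher). The 8 striatal markers depend on where the cortex was cut. They summed to 210.0 to 508 FPKM in CrT-/y and 123 to 471 FPKM in CrT+/y animals, with CrT+/y replicate 1 the lowest. The 6 olfactory bulb markers summed to 7.91 to 20.3 and 4.23 to 8.32 FPKM (0 of 8 striatal and 1 of 4 tested bulb markers called higher). All 8 striatal and all 4 tested bulb markers had a higher mean in CrT-/y animals (median log2 fold change 0.60 and 0.76). No marker in these lists was at 0 in any animal. Their part in the values of the 9 genes was not tested.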

How the data were processed

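Total RNA of 7 cortices (4 CrT-/y and 3 CrT+/y) was sequenced as paired-end mRNA libraries. The authors aligned the reads to mm10 with the Tuxedo protocol (the labels name Bowtie and Cuffnorm), kept unique alignments with at most 2 mismatches, and deposited FPKM per gene and animal. No count model was used. The labels gave each animal its genotype and number.

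The test was limma 3.58.1 (R 4.3.3) on log2(FPKM + 0.1) for genes averaging 1 FPKM or more, with genotype alone, a trend of the variance and Benjamini-Hochberg adjustment over all 12988 genes. Fold changes are on that scale and understate the change of low genes. Depth was estimated from weakly expressed genes and is approximate. Ratios were tested with exact permutation tests (scipy 1.17.1). The fit was tested on simulated data. Positions and transcript lengths came from GENCODE M21 (GRCm38). Of the table's symbols, 23310 matched directly, 666 as a synonym and 370 did not match. Plpp3 was read as Ppap2b, and Pc was not found.

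The genes named were the 9 members, Slc6a8, called genes of the related lists (the 4 with the smallest p-value each) and the 2 genes nearest to each member, of which 1 is not reported here. The members and lists were chosen with earlier results of these data known. Alternatives were other pseudocounts (0.01 and 1), filters (none, or a mean of 5 FPKM), scalings, variance models, a block on the replicate number and each animal left out. Same-numbered animals did not deviate together.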

Additional observations from a re-analysis of the deposited data

Results flagged for a closer look

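Summed over the 22 reactive astrocyte genes, CrT-/y replicate 0 stood apart from its group at 97.0 FPKM, where the other 3 CrT-/y animals were at 125 to 130.1 FPKM and the CrT+/y animals at 98.6 to 112 FPKM (Dixon's ratio 0.847). The same animal had the lowest Gfap of the CrT-/y group. Among 33 values examined this way in the 4 CrT-/y animals it was the only one past the critical value. Chance gives about 1 in 20 for each value, so that 1 among 33 is not unusual.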

How the results depend on the processing

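FPKM without counts leave the depth behind each value an estimate, and 4 against 3 animals limit what can be told apart. The 2 other pseudocounts changed no call among the named genes. The 5 ratios kept their direction under the 2 pseudocounts, quantile normalization and the replicate block, with no exact p under 0.17 where one was computed. Leaving out 1 animal, where no p was computed, turned the sign of Slc1a2/Slc1a3 (-0.07 to 0.0033) and Glul/Slc1a2 (-0.08 to 0.05) and not of Gfap/Aldh1l1 (0.25 to 0.61), Aqp4/Gja1 (-0.24 to -0.10) or S100b/Sox9 (0.05 to 0.17). No member was called lower (0 of 9) without a filter, under quantile normalization, median centring, upper quartile scaling or the transcript length correction, or without a variance trend. The log2 fold change of Gja1 turned to 0.046 (quantile), 0.0058 (median centring), 0.031 (upper quartile) and 0.012 (length correction), and leaving out 1 animal gave -0.14 (CrT+/y replicate 3) to 0.056 (CrT+/y replicate 1). Astrocyte-enriched genes called lower numbered 3 without a filter and under upper quartile scaling, and 9 at a mean of 5 FPKM and with array weights. Endfoot genes called lower numbered 1 under quantile normalization. The causes were not tested.

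Over all tested genes, 377 were called higher and 941 lower. These counts were 206 and 524 without a filter, 528 and 555 under quantile normalization, 490 and 527 under median centring, 741 and 463 under upper quartile scaling, 576 and 666 with the length correction, 625 lower without a variance trend, and 602 and 1295 with array weights. Leaving out 1 animal gave 11 (without CrT-/y replicate 1) to 1340 (without CrT+/y replicate 3) higher and 53 to 2393 lower, the same 2 animals marking the ends. It gave 0 to 3 members called lower and 0 called higher, 0 to 9 astrocyte-enriched genes lower and 0 to 2 higher, 0 to 4 endfoot genes lower and 0 to 1 higher, 0 to 1 glutamate and glutamine genes in either direction, and 0 to 2 reactive genes higher and 0 to 1 lower.

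The replicate block did not rest on a pairing, since same-numbered animals correlated at -0.08, 0.05 and -0.05 across genes. CrT-/y replicate 0 has no same-numbered CrT+/y animal, so that the block gave it no weight in the genotype comparison. The fold changes with the block are therefore those without this animal, which had the lowest Gfap of the CrT-/y group. With the replicate block 166 genes were called higher and 410 lower, 0 members were called lower and 1 higher (Gfap, log2 fold change 0.47, adjusted p = 0.071 with limma, over all its alternatives 0.071 to 0.71), and 3 astrocyte-enriched genes were lower, 1 astrocyte-enriched gene higher and 2 reactive genes higher. With the replicate block and the length correction 127 were higher and 199 lower, 1 member was higher (Gfap) and 0 lower, 0 astrocyte-enriched and 0 endfoot genes were lower, and Gja1 was at 0.015.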
